A study of Mus musculus with 12 samples.

Results

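The genes described here are 33 genes of microglia, the resident macrophages of the brain, measured in hippocampus of N40K transgenic mice and their wild type (WT) littermates. They were taken by symbol from a table of 23352 gene entries: 10 genes of resting (homeostatic) microglia, 11 genes that microglia share with other myeloid or phagocytic cells, the 3 genes of complement C1q, and 9 genes of the disease-associated state. Each of the 33 matched 1 entry. The values are FPKM, a count of fragments divided by transcript length and by library size, so levels are per length and can be set side by side between genes. Of the 33 genes, 30 reached 1 FPKM in 3 or more of the 12 libraries and were tested, as were 13945 entries in all.

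Microglia survey the tissue, clear debris and synapses, and depend on the receptor Csf1r for survival. In the resting state they carry receptors such as P2ry12, which senses nucleotides, and Cx3cr1, which binds the neuronal ligand fractalkine. In mouse models of amyloid and neurodegeneration, signalling through Trem2 and its adaptor Tyrobp accompanies a switch in which resting genes fall and genes such as Cst7, Itgax, Clec7a, Lpl, Axl and several cathepsins rise.

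The study compared N40K mice with WT mice at 2 ages, with 3 libraries in each of 4 groups. N40K is a truncated form of U1-70K (SNRNP70), a protein of the U1 spliceosome particle; a modified CaMKIIa promoter drove it in neurons, in 1 transgenic line named Tg396. The groups were N40K mice at 12 months, WT mice at 12 months, N40K mice at 3 months and WT mice at 3 months, all of strain C57BL/6J, and the WT mice did not carry the transgene. The libraries held poly-A selected RNA of whole hippocampus; nothing in the labels states which libraries came from separate mice, so p-values measure the spread between these libraries.

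FPKM summed to between 309358 and 350760 per library, and the depth recovered from low values was roughly 39.5 to 96.5 M reads. Snrnp70 was listed at 259 to 401 FPKM in the 6 N40K libraries, against 96.0 to 179 FPKM in the 6 WT libraries, so the transgene label held in each. The labels describe the extraction as from tumor samples, while the tissue is given as hippocampus. The neuronal genes Snap25 and Camk2a stood at 830 to 1040 and 533 to 686 FPKM. Xist was at 13.5 to 17.3 FPKM in 1 N40K and 2 WT libraries of 3 months and at or below 0.112 FPKM in the other 9, so sex was not balanced between the ages. The library numbers in the labels also form 1 series for 12 months and another for 3 months, so age and library series cannot be told apart. Ttr, the leading gene of choroid plexus, ranged from 25.2 to 5810 FPKM between libraries, and was highest in replicate 3 of N40K at 12 months, WT at 12 months and WT at 3 months, and in replicate 2 of N40K at 3 months.

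The markers bore out the label of the gene set for resting microglia and much less for the disease-associated state. All 10 resting genes were tested, with means over the 12 libraries between 1.78 FPKM for Irf8 and 33.8 FPKM for Csf1r. Of the 9 disease-associated genes, Cst7, Itgax and Clec7a, which are close to absent from resting microglia, stayed below 0.48 FPKM in each of the 12 libraries. The other 6 are expressed widely, by neurons, oligodendrocytes or endothelial cells among others, and their means ran from 11.8 FPKM for Axl to 192 FPKM for Ctsd. Of 13 genes matched from a list for other blood cells 5 were tested. The T cell receptor gene Cd3e was at 0 to 0.0692 FPKM and monocyte Ccr2 at 0.007 to 0.158 FPKM, but neutrophil S100a8 and S100a9 were at 0.473 to 2.52 and 0.359 to 2.63 FPKM and monocyte Ly6c2 at 0.312 to 1.34 FPKM, in the range of Ptprc and Irf8 among the 33. The globins Hbb-b1 and Hba-a1 of red blood cells were at 27.5 to 75.9 and 56.5 to 143 FPKM. Macrophages of the brain's borders share many of the 33 genes, and 7 of the 14 genes listed for them were tested. Mrc1 was at 0.589 to 1.6 FPKM and Cd163 at 0.326 to 0.657 FPKM. Other genes of that list were higher, with Stab1 at 2.65 to 4.61, H2-Aa at 1.18 to 4.67 and Cd74 at 2.01 to 8.6 FPKM.

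**Figure D1:**
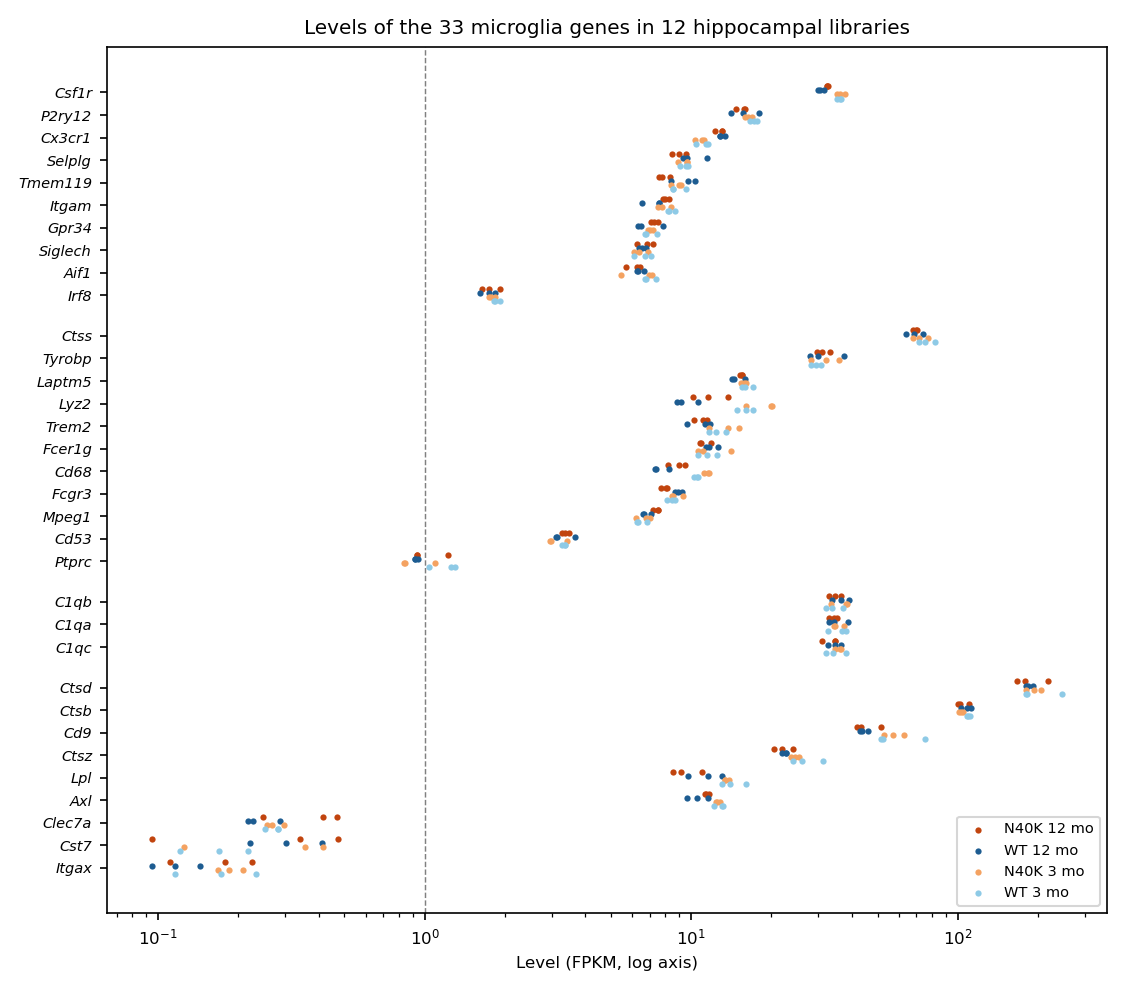
Levels of the 33 microglia genes in the 12 libraries. The horizontal axis is FPKM on a log axis, each row is a gene grouped by role, and each point is a library coloured by group. The cathepsin Ctsd had the highest mean (192 FPKM) and the disease-associated genes Cst7, Itgax and Clec7a the lowest, all below 0.48 FPKM.

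Promoters are shown for 3 of the genes that changed with age in both genotypes. Cx3cr1 was higher at 12 months, and Lyz2 and Cd68 were lower. Cd9 was also lower in both genotypes, and its window is not shown. Each window holds 300 bases, most of them before the annotated start, in RefSeq GRCm38.p6, and all 3 lie on the minus strand: Cx3cr1 at chr9:120068247-120068546, Lyz2 at chr10:117282223-117282522 and Cd68 at chr11:69666121-69666420. Capitals mark a match to the PU.1 motif.
Cx3cr1: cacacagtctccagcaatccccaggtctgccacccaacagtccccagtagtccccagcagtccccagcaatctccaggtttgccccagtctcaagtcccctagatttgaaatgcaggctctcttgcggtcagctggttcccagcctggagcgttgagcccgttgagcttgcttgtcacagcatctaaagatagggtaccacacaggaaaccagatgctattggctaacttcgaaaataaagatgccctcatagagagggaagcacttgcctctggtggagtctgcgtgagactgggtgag
Lyz2: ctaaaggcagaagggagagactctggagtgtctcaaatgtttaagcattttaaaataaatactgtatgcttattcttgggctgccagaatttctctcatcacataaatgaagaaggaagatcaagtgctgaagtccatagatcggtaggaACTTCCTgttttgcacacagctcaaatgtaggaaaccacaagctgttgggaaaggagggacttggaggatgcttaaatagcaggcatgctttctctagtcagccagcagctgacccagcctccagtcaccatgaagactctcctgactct
Cd68: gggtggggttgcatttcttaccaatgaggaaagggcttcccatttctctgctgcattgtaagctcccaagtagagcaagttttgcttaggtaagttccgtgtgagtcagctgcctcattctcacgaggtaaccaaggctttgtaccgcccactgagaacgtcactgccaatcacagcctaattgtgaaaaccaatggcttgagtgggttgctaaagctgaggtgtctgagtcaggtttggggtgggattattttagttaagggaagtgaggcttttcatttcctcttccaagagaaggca
Of the 33 genes, 25 matched a window by symbol. Tmem119, C1qa, Selplg, Tyrobp, Gpr34, Csf1r, Lpl and Ctsb are named only. The windows were searched on both strands for AGGAAGT, a core motif of PU.1, the factor that specifies myeloid cells, for GAAANNGAA of interferon regulatory factors and for TCACGTG of the CLEAR element of lysosomal genes; overlapping matches were counted. The 25 genes had 29 windows. AGGAAGT was in 9 of the 29, against 9.4% of the 32851 windows of all genes. Those 9 belonged to 8 genes (C1qb, C1qc, Cd53, Cst7, Ctss, Lyz2, P2ry12 and Ptprc). GAAANNGAA was in 3 of the 29 windows (Aif1, Cd9 and Ctss), against 8.6% of all windows. TCACGTG was in 3 of the 29 (Ctsd, P2ry12 and Siglech), against 3.8%. None of the 3 motifs was in the Cx3cr1 or Cd68 window. A match describes the letters and does not show a site in use.

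Between N40K and WT mice the microglia genes differed little at either age. At 12 months 3 of 30 changed: Cd68 was higher in N40K, and Tmem119 and Fcgr3 were lower. Over all tested genes 18.9% were called in that comparison (limma, adjusted p under 0.05; 11.2% higher and 7.71% lower), so 3 of 30 lay below the background, and 6 of the 30 had an unadjusted p under 0.05, against 34.4% of all genes. At 3 months 0 of 30 were called by limma, where 11.4% of all genes were, and 1 had an unadjusted p under 0.05, where 25.5% of all genes did. The median difference of log2(FPKM + 1), N40K minus WT, was 0.01 at 12 months (all genes, 0.01) and -0.03 at 3 months (all genes, 0.02). The median size regardless of sign was 0.06 at 12 months and 0.06 at 3 months, against 0.11 and 0.09 for all genes.

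**Figure D2:**
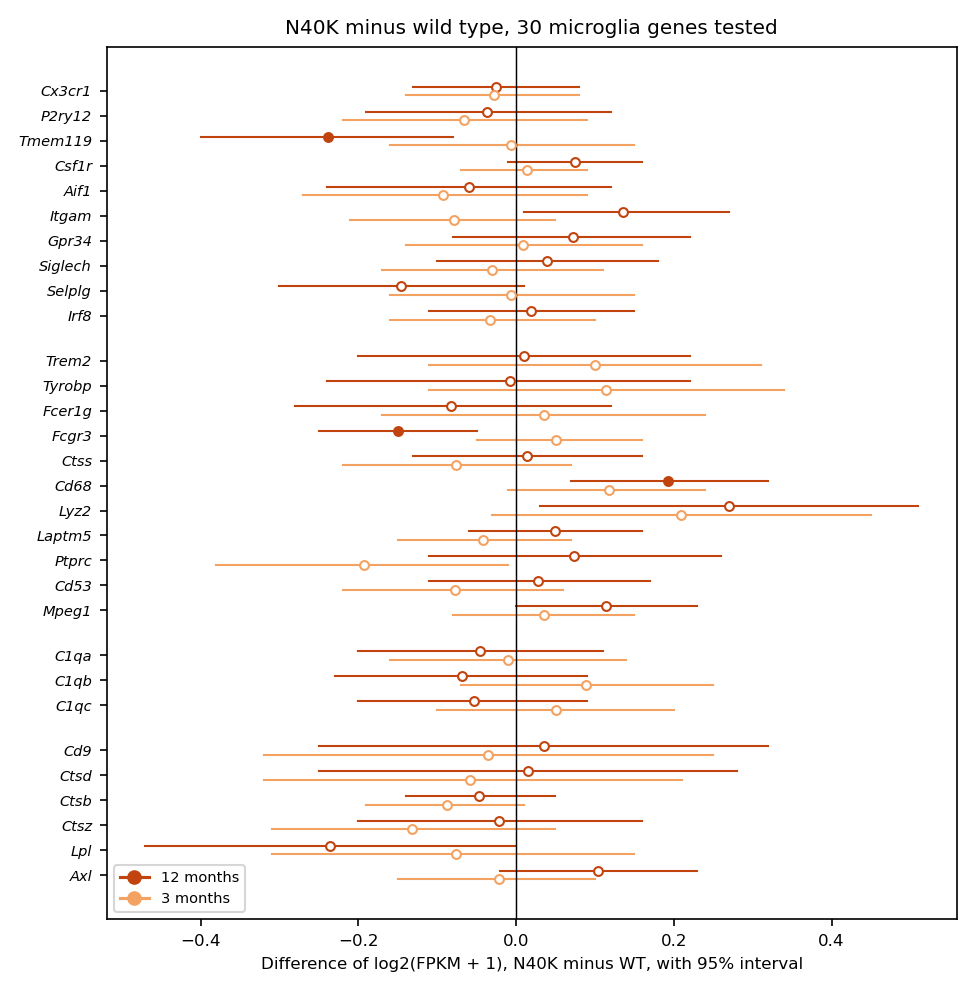
Difference of log2(FPKM + 1) between N40K and WT mice for the 30 tested microglia genes, grouped by role, with 95% intervals. Dark points are 12 months and light points 3 months, and filled points passed limma's adjusted p of 0.05. Only Cd68, Tmem119 and Fcgr3 at 12 months are filled.

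Tmem119, a membrane protein used as a marker of resident microglia, had 7.76, 8.31 and 7.55 FPKM in the 12-month N40K libraries, against 9.73, 10.4 and 8.41 FPKM in the 12-month WT libraries. Each N40K library lay below each WT library. The log2 difference was -0.24 ± 0.071 (SE), limma adjusted p = 0.0375. In bulk tissue fewer microglia and less RNA per cell cannot be told apart, and the number of cells was not tested. At 12 months the median difference of the 10 resting genes was -0.003, with 5 above 0 and 5 below. At 3 months Tmem119 had 8.37, 9.13 and 8.97 FPKM in N40K, against 9.53, 8.56 and 8.55 FPKM in WT. Those groups overlapped, with a difference of -0.01 and a 95% interval from -0.16 to 0.15. The 12-month call was lost under 8 of 25 alternatives, among them leaving out any of the 3 N40K libraries of 12 months, WT replicate 1 or 2 of that age, or N40K replicate 3 of 3 months, and the adjusted p reached at most 0.125.

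The other 9 resting genes were not called between genotypes at either age. Cx3cr1, the fractalkine receptor, had 13, 13.1 and 12.2 FPKM in N40K at 12 months, against 12.8, 13.4 and 12.8 FPKM in WT at 12 months. At 3 months it had 10.4, 11.0 and 11.1 FPKM in N40K, against 11.3, 11.5 and 10.4 FPKM in WT. The genotypes overlapped at both ages, with differences of -0.03 at 12 months (interval -0.13 to 0.08) and -0.03 at 3 months (interval -0.14 to 0.08). P2ry12 had 15.8, 15.8 and 14.7 FPKM in N40K at 12 months, against 14.1, 18 and 15.7 FPKM in WT at 12 months. At 3 months P2ry12 had 15.9, 16.4 and 16.8 FPKM in N40K, against 17.6, 17.2 and 16.7 FPKM in WT. Its difference was -0.04 at 12 months (interval -0.19 to 0.12) and -0.07 at 3 months (interval -0.22 to 0.09), with overlap at both ages. P2ry12 and Csf1r each share exon sequence with a gene of the opposite strand (Med12l and Hmgxb3), and the strand setting of the counting was not given, so their levels are uncertain. The same holds for Cx3cr1 and Cd9, which overlap the opposite-strand genes Gm33858 and Gm26728, and for Itgam and Ctsd, which share exon sequence on the same strand with Gm49368 and Gm49369; none of these 4 partners is an entry of the table.

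Aif1, which encodes the cytoskeletal protein Iba1, had 6.28, 6.42 and 5.67 FPKM in N40K at 12 months, against 6.67, 6.26 and 6.32 FPKM in WT at 12 months. At 3 months it had 5.46, 7.10 and 6.95 FPKM in N40K, against 6.71, 7.40 and 6.76 FPKM in WT. Both pairs overlapped, with differences of -0.06 (interval -0.24 to 0.12) at 12 months and -0.09 (interval -0.27 to 0.09) at 3 months. Csf1r had 32.2, 32.5 and 32.3 FPKM in N40K at 12 months, against 30.4, 30 and 31.6 FPKM in WT at 12 months. Each N40K value lay above each WT value, yet the difference of 0.08 did not pass (limma adjusted p = 0.176, interval -0.01 to 0.16). Itgam, the integrin CD11b, was likewise above WT in every pair of libraries at 12 months, with 7.98, 8.27 and 7.82 FPKM in N40K, against 6.53, 7.56 and 7.58 FPKM in WT. Its difference of 0.14 had an adjusted p of 0.129 by limma. In all, 5 of 30 microglia genes had groups without overlap at 12 months (3 higher and 2 lower in N40K), against 38.8% of all genes (21.3% higher and 17.5% lower). At 3 months 2 of 30 had none (1 higher and 1 lower), against 31.9% of all genes (20.4% higher and 11.5% lower).

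Over the 12 libraries the remaining resting genes kept narrow ranges. The orphan receptor Gpr34 ran from 6.32 to 7.83 FPKM with a median of 7.02, the sialic acid lectin Siglech from 6.12 to 7.19 with a median of 6.6, and the myeloid factor Irf8 from 1.61 to 1.91 with a median of 1.8. Selplg, the ligand of P-selectin, ran from 8.47 to 11.4 FPKM with a median of 9.55. Its 12-month difference of -0.15 had an interval from -0.30 to 0.01.

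Among the myeloid and phagocytic genes Cd68, a lysosomal membrane glycoprotein of phagocytes, was higher in N40K. It had 8.98, 9.49 and 8.22 FPKM in N40K at 12 months, against 8.27, 7.40 and 7.31 FPKM in WT at 12 months. WT replicate 1 lay just above the lowest N40K library, so the groups overlapped by that 1 pair. The difference was 0.19 ± 0.057 (SE), limma adjusted p = 0.0373, or 16.1% more in mean FPKM. At 3 months Cd68 had 11.6, 11.1 and 11.6 FPKM in N40K, against 10.5, 10.6 and 10.2 FPKM in WT. Here each N40K library lay above each WT library, but the difference of 0.12 had an adjusted p of 0.224 by limma (interval -0.01 to 0.24). Averaged over both ages Cd68 differed by 0.15 ± 0.04 (SE), limma adjusted p = 0.016.

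Lyz2, the lysozyme of myeloid cells, was the other gene called over both ages. It had 10.1, 11.5 and 13.7 FPKM in N40K at 12 months, against 10.6, 8.87 and 9.15 FPKM in WT at 12 months. At 3 months Lyz2 had 16, 19.9 and 20.0 FPKM in N40K, against 17.0, 14.8 and 16 FPKM in WT. The N40K means were higher at both ages, with overlap at each. Averaged over the ages the difference was 0.24 ± 0.078 (SE), limma adjusted p = 0.043, while at 12 months alone it was 0.27 (adjusted p = 0.108) and at 3 months 0.21 (adjusted p = 0.268). Averaged over the ages 2 of 30 microglia genes were called, both higher, against 25.0% of all genes (15.5% higher), and 3 had an unadjusted p under 0.05, against 37.3%. The near-identical Lyz1 was listed at 0 to 0.154 FPKM. The averaged call of Lyz2 held under 10 of 24 alternatives and that of Cd68 under 22 of 24; the 12-month call of Cd68 held under 13 of 25, and was lost without replicate 1 or 2 of N40K or replicate 2 or 3 of WT at that age, and without N40K replicate 3 or WT replicate 1 or 2 of 3 months. The averaged call of Lyz2 was lost without replicate 2 or 3 of any group and without WT replicate 1 of 3 months.

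Fcgr3, a low-affinity receptor for IgG, went the other way at 12 months, with 8.07, 8.08 and 7.70 FPKM in N40K, against 8.68, 9.21 and 8.91 FPKM in WT. Each N40K library lay below each WT library. The difference was -0.15 ± 0.048 (SE) with a limma adjusted p of 0.048, and it passed under 5 of 25 alternatives, being lost without any 1 library other than N40K replicate 3 of 3 months. At 3 months Fcgr3 had 8.44, 8.55 and 9.29 FPKM in N40K, against 8.66, 8.08 and 8.50 FPKM in WT, with overlap and a difference of 0.05 (interval -0.05 to 0.16).

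The Trem2 receptor and its adaptor showed no called difference by genotype. Trem2 had 10.2, 11.5 and 11.1 FPKM in N40K at 12 months, against 11.2, 11.7 and 9.60 FPKM in WT at 12 months. At 3 months it had 11.7, 13.8 and 15.2 FPKM in N40K, against 13.5, 12.4 and 11.6 FPKM in WT. The groups overlapped at both ages, with differences of 0.01 (interval -0.20 to 0.22) at 12 months and 0.10 (interval -0.11 to 0.31) at 3 months. Tyrobp had 31.1, 33.3 and 29.6 FPKM in N40K at 12 months, against 27.8, 37.4 and 29.9 FPKM in WT at 12 months. At 3 months Tyrobp had 28.2, 35.9 and 32.0 FPKM in N40K, against 30.6, 28.2 and 29.5 FPKM in WT. Its groups overlapped too, with differences of -0.01 (interval -0.24 to 0.22) at 12 months and 0.11 (interval -0.11 to 0.34) at 3 months. Mpeg1, a pore-forming protein of macrophages, had 7.5, 7.51 and 7.21 FPKM in N40K at 12 months, against 6.65, 7.07 and 6.59 FPKM in WT at 12 months, all higher, with a difference of 0.11 and a limma adjusted p of 0.149. At 3 months Mpeg1 had 6.19, 7.02 and 6.74 FPKM in N40K, against 6.80, 6.31 and 6.26 FPKM in WT.

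Over the 12 libraries the Fc receptor chain Fcer1g ran from 10.6 to 14.1 FPKM with a median of 11.4, and the lysosomal protease Ctss from 64.2 to 82.1 with a median of 70.9. The lysosomal protein Laptm5 ran from 14.2 to 17.1 FPKM with a median of 15.5, and the tetraspanin Cd53 from 2.94 to 3.65 with a median of 3.32. None of these 4 was called by genotype. Ptprc, the leukocyte phosphatase CD45, ran from 0.835 to 1.3 FPKM with a median of 0.937. It was the 1 gene of the 30 at an unadjusted p under 0.05 at 3 months, with a difference of -0.19 and a limma adjusted p of 0.175.

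The 3 chains of C1q, the first component of the classical complement pathway, stood at nearly equal levels. C1qa had 35.2, 34.4 and 32.9 FPKM in N40K at 12 months, against 34.3, 38.8 and 33 FPKM in WT at 12 months, and at 3 months 34.3, 37.6 and 34.5 FPKM in N40K, against 38.0, 32.6 and 36.6 FPKM in WT. C1qb had 32.9, 34.7 and 36.6 FPKM in N40K at 12 months, against 36.6, 39.1 and 33.8 FPKM in WT at 12 months, and at 3 months 33.3, 38.4 and 38.0 FPKM in N40K, against 37.2, 32.1 and 33.6 FPKM in WT. C1qc had 30.9, 34.5 and 34.5 FPKM in N40K at 12 months, against 34.7, 36.5 and 32.5 FPKM in WT at 12 months, and at 3 months 34.7, 36.6 and 36.1 FPKM in N40K, against 38.0, 31.9 and 34 FPKM in WT. All 3 chains were highest in the same library in 3 of the 4 groups: replicate 2 of WT at 12 months, replicate 2 of N40K at 3 months and replicate 1 of WT at 3 months. In N40K at 12 months they were not, with C1qa highest in replicate 1 and C1qb in replicate 3. The genotypes overlapped for each chain at each age. The 12-month differences were -0.05 for C1qa (interval -0.20 to 0.11), -0.07 for C1qb (interval -0.23 to 0.09) and -0.05 for C1qc (interval -0.20 to 0.09).

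Of the disease-associated genes 6 of 9 passed the filter, and 0 of the 6 were called between genotypes at either age by limma. Over all tested genes 18.9% were called at 12 months and 11.4% at 3 months. At an unadjusted p under 0.05 there was 1 of the 6 at 12 months and 0 at 3 months, against 34.4% and 25.5% of all genes. With 6 genes such counts say little. The 3 that did not pass are given as listed. Cst7, a cystatin inhibitor of lysosomal proteases, was at 0.0949, 0.472 and 0.342 FPKM in N40K at 12 months, against 0.221, 0.412 and 0.303 FPKM in WT at 12 months, and at 3 months at 0.125, 0.414 and 0.355 FPKM in N40K, against 0.121, 0.217 and 0.169 FPKM in WT. Itgax, the integrin CD11c, was at 0.11, 0.226 and 0.179 FPKM in N40K at 12 months, against 0.116, 0.0952 and 0.143 FPKM in WT at 12 months, and at 3 months at 0.184, 0.208 and 0.168 FPKM in N40K, against 0.115, 0.234 and 0.172 FPKM in WT. Clec7a, the glucan receptor dectin-1, was at 0.246, 0.414 and 0.471 FPKM in N40K at 12 months, against 0.218, 0.287 and 0.226 FPKM in WT at 12 months, and at 3 months at 0.267, 0.257 and 0.297 FPKM in N40K, against 0.282, 0.251 and 0.281 FPKM in WT. N40K and WT overlapped for all 3 genes at both ages, and none of the 3 was tested.

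The more abundant genes of the group also overlapped between genotypes in most cases. Lpl, a lipase that is also expressed by neurons, had 11.0, 8.57 and 9.13 FPKM in N40K at 12 months, against 9.74, 13 and 11.6 FPKM in WT at 12 months. Its difference of -0.24 had an interval from -0.47 to 0.00 and a limma adjusted p of 0.138. Axl, a receptor for Gas6 that binds dying cells, had 11.6, 11.2 and 11.4 FPKM in N40K at 12 months, against 11.6, 9.62 and 10.5 FPKM in WT at 12 months, a difference of 0.10 (interval -0.02 to 0.23). In 3 of the 4 groups the tetraspanin Cd9 and the cathepsins Ctsd and Ctsz were each highest in the library richest in Ttr. No other gene of the microglia set was so in as many groups. The share of all tested genes with such a match was not counted, so a link of these genes to Ttr is not shown. Cd9 had 43.4, 41.9 and 51.4 FPKM in N40K at 12 months, against 43.0, 45.9 and 43.8 FPKM in WT at 12 months, a difference of 0.04 (interval -0.25 to 0.32). The part of choroid plexus RNA in the values of Cd9, Ctsd and Ctsz was not tested. Ctsd ran from 166 to 245 FPKM over the 12 libraries with a median of 182, and Ctsb, which overlaps Fdft1 on the opposite strand, from 101 to 112 FPKM with a median of 106. At 3 months each Ctsb value in N40K lay below each in WT, and the difference was -0.09 (interval -0.19 to 0.01).

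How large a difference could have gone unseen is given by the intervals. At 3 months the 95% intervals of all 30 genes lay within 0.5 on the log2 scale on either side of 0, and at 12 months those of 29 genes did; the exception was Lyz2, whose interval reached 0.51. A p that misses the threshold does not show that the genotypes were alike.

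The difference between the genotype effects at 12 and 3 months was tested directly. Of 30 genes 0 were called by limma, against 0.0645% (9 genes) of all genes, and 4 had an unadjusted p under 0.05, where 14.3% of all genes did. These were Fcgr3 at -0.20, Itgam at 0.21, Tmem119 at -0.23 and Ptprc at 0.27, each the 12-month minus the 3-month difference, with limma adjusted p-values from 0.224 to 0.337. The genotype differences of Tmem119, Cd68 and Fcgr3 at 12 months are therefore not shown to differ from those at 3 months.

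**Figure D3:**
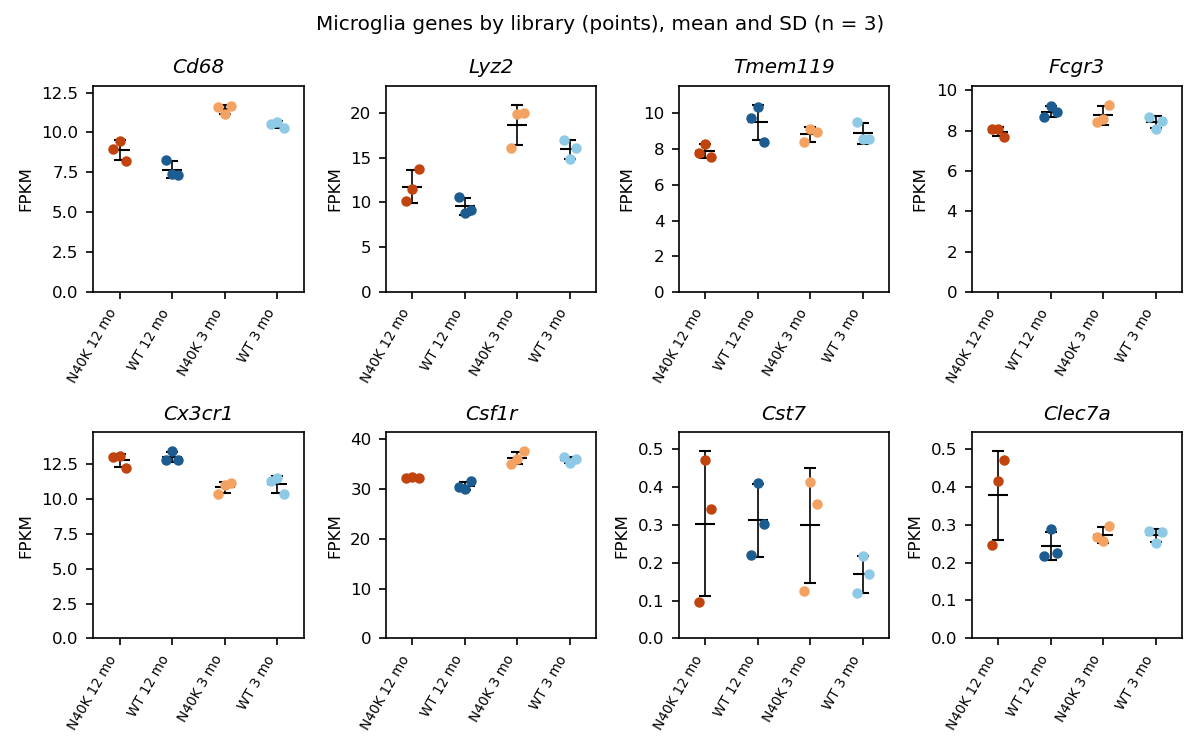
FPKM per library (points) with mean and SD (n = 3) for 8 microglia genes in the 4 groups; each vertical axis starts at 0. Cd68 and Lyz2 sit lower in both 12-month groups and Cx3cr1 higher, and at 12 months Tmem119 and Fcgr3 sit lower in N40K than in WT. Cst7 and Clec7a stay below 0.48 FPKM.

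More of the microglia genes were called with age than with genotype. In N40K mice 9 of 30 microglia genes changed between 12 and 3 months (2 higher and 7 lower at 12 months), and in WT mice 9 of 30 (1 higher and 8 lower). These shares lay below those of all tested genes, of which 51.6% were called in N40K (15.1% higher and 36.5% lower) and 41.6% in WT (12.6% higher and 29.0% lower). The ages did not overlap for 13 of the 30 genes in N40K (2 higher and 11 lower at 12 months), against 62.8% of all genes (19.1% higher and 43.7% lower). In WT they did not overlap for 12 of the 30 (2 higher and 10 lower), against 50.3% of all genes (15.7% higher and 34.5% lower). Of the 9 in each genotype 6 were shared and moved the same way: Cx3cr1 was higher, and Csf1r, Cd68, Lyz2, Cd9 and Lpl were lower. Trem2, Fcgr3 and Mpeg1 were called in N40K alone, and Itgam, Ctsz and Axl in WT alone, and for none of these was the difference between the genotypes called when tested directly. The median of all genes was itself below 0, at -0.10 in N40K and -0.08 in WT, against -0.06 and -0.08 for the microglia genes. Removing the trend with transcript length moved the N40K median of all genes to 0.00, so age differences are also given relative to the median.

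**Figure D4:**
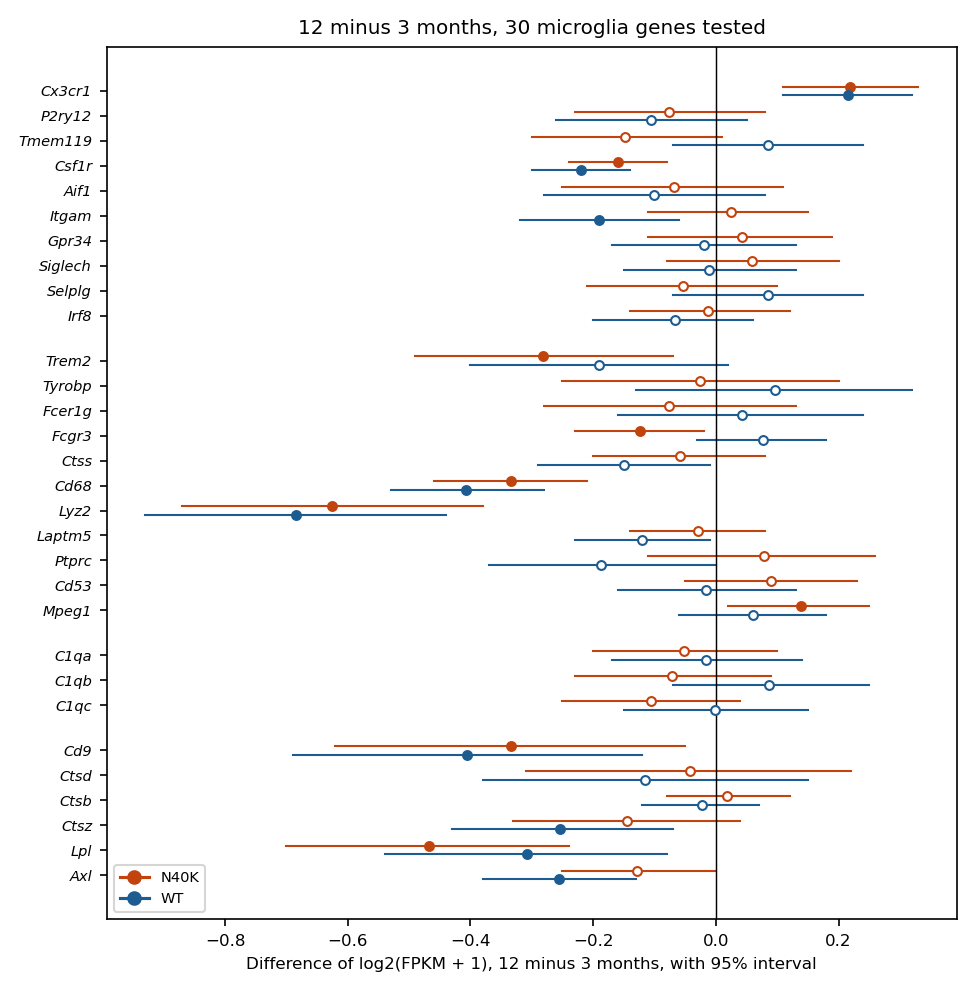
Difference of log2(FPKM + 1) between 12 and 3 months for the 30 tested microglia genes, grouped by role, with 95% intervals. Orange-red points are N40K and blue points WT, and filled points passed limma's adjusted p of 0.05. Lyz2 has the largest fall in both genotypes (-0.62 in N40K and -0.69 in WT) and Cx3cr1 the largest rise (0.22 and 0.21).

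In the values as deposited Lyz2 fell by more than any other of the 30 genes. Its 12-month libraries, at 8.87 to 13.7 FPKM in both genotypes, all lay below its 3-month libraries, at 14.8 to 20.0 FPKM. The age difference was -0.62 ± 0.11 (SE) in N40K, limma adjusted p = 0.000779, and -0.69 ± 0.11 (SE) in WT, limma adjusted p = 0.000707. Its mean FPKM fell by 36.9% in N40K and fell by 40.1% in WT. Relative to the median of all genes the differences were -0.52 and -0.61. Cd68 also separated the ages without overlap, at 7.31 to 9.49 FPKM at 12 months, against 10.2 to 11.6 FPKM at 3 months. Its age difference was -0.33 ± 0.057 (SE) in N40K, limma adjusted p = 0.000624, and -0.41 ± 0.057 (SE) in WT, limma adjusted p = 0.000304. The call of Cd68 held under all 25 alternatives in WT and under all but 1 in N40K, where removing the length trend left -0.08 (limma adjusted p = 0.366).

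Border macrophages also express Lyz2 and Cd68. Of the 14 genes listed for them 7 were tested. In N40K 1 of the 7 was lower at 12 months (Cbr2) and in WT 2 were (Pf4 and Cbr2), against 36.5% and 29.0% of all tested genes. The medians of the 7 were -0.22 and -0.38, against -0.10 and -0.08 for all genes. The summed level of all 14 was 12.4 to 22.9 FPKM in N40K at 12 months and 10.6 to 17.5 FPKM in WT at 12 months, against 15.6 to 26.4 FPKM in N40K at 3 months and 16.4 to 29.5 FPKM in WT at 3 months. None of the 14 was at 0 in any library. Their part in the falls of Lyz2 and Cd68 was not tested.

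Cx3cr1 was higher at 12 months in both genotypes. It was at 12.2 to 13.4 FPKM in the 6 libraries of 12 months, against 10.4 to 11.5 FPKM in the 6 libraries of 3 months, with no overlap in either genotype. The difference was 0.22 ± 0.049 (SE) in N40K, limma adjusted p = 0.0034, and 0.21 ± 0.049 (SE) in WT, limma adjusted p = 0.00517. In mean FPKM it was 17.9% higher in N40K and 17.4% higher in WT. Relative to the median of all genes these were 0.32 and 0.29. Cx3cr1 and Lyz2 passed in both genotypes under all 25 alternatives.

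Csf1r had 32.2, 32.5 and 32.3 FPKM in N40K at 12 months, against 35.1, 36.0 and 37.6 FPKM in N40K at 3 months. In WT it had 30.4, 30 and 31.6 FPKM at 12 months, against 36.4, 35.2 and 36.0 FPKM at 3 months. The ages did not overlap, and the differences were -0.16 in N40K (limma adjusted p = 0.00394) and -0.22 in WT (limma adjusted p = 0.000893). Relative to the median of all genes they were -0.06 and -0.14. With the GC trend removed the N40K difference turned to 0.01 (limma adjusted p = 0.8) and that of WT lost its call at -0.09, so the direction of Csf1r in N40K depends on that step.

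Of the other resting genes only Itgam was called with age. P2ry12 differed by -0.08 in N40K (interval -0.23 to 0.08) and -0.11 in WT (interval -0.26 to 0.05). Aif1 differed by -0.07 (interval -0.25 to 0.11) and -0.10 (interval -0.28 to 0.08). Tmem119 differed by -0.15 in N40K (interval -0.30 to 0.01) and 0.09 in WT (interval -0.07 to 0.24). Itgam was lower at 12 months in WT, at -0.19 ± 0.059 (SE), limma adjusted p = 0.024, and differed by 0.02 in N40K (interval -0.11 to 0.15). Its call in WT was lost without WT replicate 1 of 12 months (-0.13) and without WT replicate 1 or 2 of 3 months.

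Of the myeloid genes called in 1 genotype, Trem2 was lower at 12 months in N40K by -0.28 ± 0.095 (SE), limma adjusted p = 0.0272, and its mean FPKM fell by 19.4%. In WT the difference was -0.19 (interval -0.40 to 0.02). Tyrobp, its adaptor, differed by -0.03 in N40K (interval -0.25 to 0.20) and 0.10 in WT (interval -0.13 to 0.32). Mpeg1 was higher at 12 months in N40K by 0.14 ± 0.053 (SE), limma adjusted p = 0.0454. Fcgr3 was lower at 12 months in N40K by -0.12 ± 0.048 (SE), limma adjusted p = 0.047, and differed by 0.08 in WT (interval -0.03 to 0.18). With the length trend removed the Fcgr3 difference in N40K turned to 0.12 (limma adjusted p = 0.0611). The N40K calls of Trem2, Mpeg1 and Fcgr3 held under 16, 10 and 6 of 25 alternatives. That of Trem2 was lost without N40K replicate 2 or 3 of 3 months or N40K replicate 1 or 3 of 12 months, and those of Mpeg1 and Fcgr3 without most single libraries.

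The C1q chains had no called age difference, with 0 of 3 in each genotype by limma and 0 at an unadjusted p under 0.05. Over all tested genes 51.6% were called in N40K and 41.6% in WT, but a count over 3 genes says little. In N40K C1qa differed by -0.05, C1qb by -0.07 and C1qc by -0.10. In WT they differed by -0.02, 0.09 and 0.00. These signs depend on the scaling: with the length trend removed all 3 chains were above 0 in both genotypes, and C1qb then passed in both (0.18 in N40K and 0.24 in WT) and C1qa in N40K (0.20).

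Among the tested disease-associated genes Lpl and Cd9 were lower with age in both genotypes. Of the 3 that were not tested, Cst7 was at 0.221, 0.412 and 0.303 FPKM in WT at 12 months, against 0.121, 0.217 and 0.169 FPKM in WT at 3 months, with no overlap, while the ages overlapped for Cst7 in N40K and for Itgax and Clec7a in both genotypes. At 12 months Lpl was at 8.57 to 11.0 FPKM in N40K, against 13.3 to 13.9 FPKM in N40K at 3 months, and at 9.74 to 13 FPKM in WT, against 13.1 to 16 FPKM in WT at 3 months. The ages did not overlap in either genotype, and the differences were -0.47 ± 0.11 (SE) in N40K, limma adjusted p = 0.0034, and -0.31 ± 0.11 (SE) in WT, limma adjusted p = 0.0353. Cd9 differed by -0.33 ± 0.13 (SE) in N40K, limma adjusted p = 0.0482, and by -0.41 ± 0.13 (SE) in WT, limma adjusted p = 0.0263. In WT at 3 months Cd9 had 51.5, 52.4 and 75.6 FPKM, and the highest was replicate 3, the library with the most Ttr of all 12. Without that library the WT difference of Cd9 was -0.23 (limma adjusted p = 0.0665) and that of Ctsz, called at -0.25 with all libraries (limma adjusted p = 0.0284), was -0.15 (limma adjusted p = 0.0971). The WT call of Lpl was lost without WT replicate 1 or 2 of 3 months or WT replicate 1 or 3 of 12 months, those of Cd9 and Ctsz also without WT replicate 1 or 3 of 12 months, and that of Ctsz without WT replicate 2 of 12 months. The N40K call of Cd9 was lost without replicate 2 or 3 of 3 months or replicate 1 or 2 of 12 months in N40K, or any WT library of 12 months. Ctsz had 22.7, 22.0 and 22.7 FPKM in WT at 12 months, against 26.0, 24.1 and 31.3 FPKM in WT at 3 months, and it overlaps Nelfcd on the opposite strand. Axl had 11.6, 9.62 and 10.5 FPKM in WT at 12 months, against 13.1, 12.2 and 13 FPKM in WT at 3 months, a difference of -0.25 ± 0.057 (SE), limma adjusted p = 0.00461. In N40K Axl differed by -0.13 (interval -0.25 to 0.00). Oligodendrocyte and endothelial cells, which express Cd9 and Axl, have markers that were counted beside them. Of 10 oligodendrocyte markers 7 were lower with age in N40K and 5 in WT (1 was higher in WT). Of 10 endothelial and mural markers 3 were lower and 2 higher in N40K, and 7 lower and 1 higher in WT. Over all tested genes 36.5% were lower and 15.1% higher in N40K, and 29.0% were lower and 12.6% higher in WT. Their part in these values was not tested.

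Further genes of the same pathways were counted from lists that had been chosen with earlier results of these data known. Of 14 other resting microglia genes, at 12 months Cd33 and Hpgds were higher in N40K (0.42 and 0.19, limma adjusted p = 0.0225 and 0.0356) and 0 were lower; at 3 months Golm1, which overlaps Naa35 on the opposite strand, was higher (0.25, limma adjusted p = 0.0368). Over all tested genes 18.9% were called at 12 months and 11.4% at 3 months. Of 15 tested genes of 20 others in the disease-associated state, 0 were called at 12 months by limma, with 1 at an unadjusted p under 0.05, and at 3 months the lipid carrier Apoe was higher (0.24, limma adjusted p = 0.0308) and B2m, the light chain of class I molecules, lower (-0.24, limma adjusted p = 0.0469). Of 12 tested signalling and transcription genes, such as Spi1, 0 were called at either age by limma, with 2 at an unadjusted p under 0.05 at 12 months and 0 at 3 months. Only 4 of 16 inflammatory cytokine and sensor genes were expressed enough to test, and 0 of these were called by genotype by limma at either age, with 0 at an unadjusted p under 0.05 at 12 months and 1 at 3 months. Of all tested genes 34.4% had an unadjusted p under 0.05 at 12 months and 25.5% at 3 months.

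Complement genes other than C1q included the clearest genotype differences among these lists. Of 9 tested genes 3 were higher in N40K at 12 months (Cfb, C2 and C4b) and 1 at 3 months (Cfb), against 11.2% of all tested genes higher at 12 months and 11.4% called in either direction at 3 months. Cfb, factor B of the alternative pathway, had 4.28, 4.44 and 3.76 FPKM in N40K at 12 months, against 2.23, 1.74 and 2.34 FPKM in WT at 12 months, and at 3 months 3.43, 3.66 and 3.45 FPKM in N40K, against 2.23, 2.34 and 2.32 FPKM in WT. No WT library reached an N40K library at either age, and the differences were 0.74 ± 0.078 (SE) at 12 months, limma adjusted p = 0.000184, and 0.45 ± 0.078 (SE) at 3 months, limma adjusted p = 0.00435. C2, which serves the classical pathway, had 2.19, 1.94 and 2.21 FPKM in N40K at 12 months, against 1.1, 0.418 and 1.03 FPKM in WT at 12 months, a difference of 0.77 ± 0.16 (SE), limma adjusted p = 0.00846. C2 shares exon sequence with Zbtb12 on the opposite strand, and both C2 and Cfb share it with Gm20547 on the same strand, so their levels are uncertain. C4b, which astrocytes and other glia express, had 26.8, 25.8 and 28.9 FPKM in N40K at 12 months, against 21.3, 21.6 and 23.3 FPKM in WT at 12 months, a difference of 0.29 ± 0.078 (SE), limma adjusted p = 0.0254. Beside these, 4 of 10 endothelial and mural markers were higher and 3 of 12 neuron markers lower in N40K at 12 months. Of 10 oligodendrocyte markers 1 was lower (Olig2) and 0 were higher. Of 10 astrocyte markers 0 were called by limma, with 1 at an unadjusted p under 0.05. Over all tested genes 11.2% were higher and 7.71% lower, and 34.4% had an unadjusted p under 0.05. Which cells held the complement transcripts was not tested.

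The ligands of microglial receptors were mixed. Cx3cl1, the fractalkine that neurons display to Cx3cr1, had 138, 139 and 134 FPKM in N40K at 12 months, against 125, 121 and 118 FPKM in WT at 12 months, and at 3 months 145, 146 and 151 FPKM in N40K, against 131, 125 and 127 FPKM in WT. Every N40K library lay above every WT library of its age, with differences of 0.18 at 12 months (limma adjusted p = 0.00942) and 0.20 at 3 months (limma adjusted p = 0.00713). Il34, a neuronal ligand of Csf1r, had 18, 18.6 and 17.6 FPKM in N40K at 12 months, against 22.4, 22.1 and 21.0 FPKM in WT at 12 months, a difference of -0.26 (limma adjusted p = 0.0128). It overlaps antisense genes (Gm15894 and Gm15895), so its level is uncertain. At 3 months Il34 had 19.1, 21.5 and 22.6 FPKM in N40K, against 21.4, 22.3 and 20.2 FPKM in WT, and was not called. Cx3cl1 at both ages, Il34 at 12 months, Cfb at both ages and C2 at 12 months passed under every alternative that tested them.

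**Figure D5:**
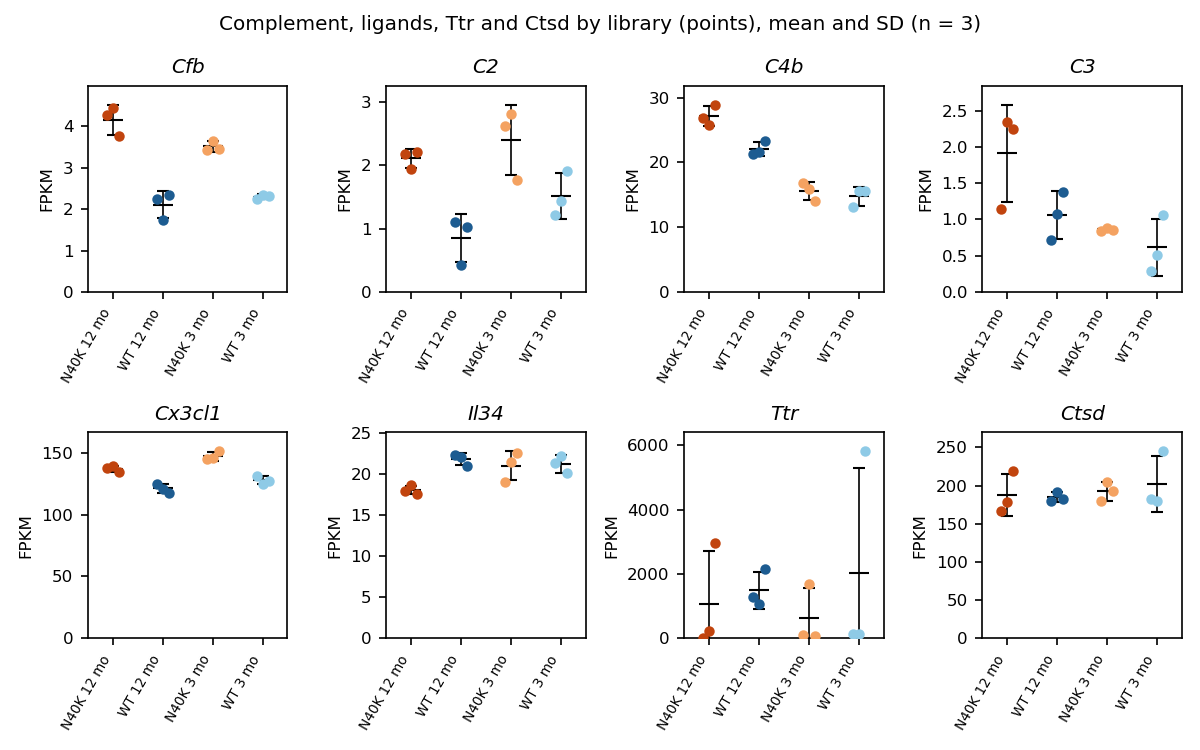
FPKM per library (points) with mean and SD (n = 3) for complement genes, 2 ligands, Ttr and Ctsd in the 4 groups; each vertical axis starts at 0, below which the SD bars of Ttr are not drawn. Cfb and Cx3cl1 sit higher in N40K at both ages, Il34 sits lower in N40K at 12 months, and Ctsd peaks with Ttr in replicate 3 of WT at 3 months, at 245 FPKM.

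Lysosomal genes outside the 33 were also counted, since many of the disease-associated genes encode lysosomal proteins. Of 17 tested, 0 were called at 12 months by limma, where 18.9% of all tested genes were. At that age 1 had an unadjusted p under 0.05, against 34.4% of all genes. At 3 months 1 was called, against 11.4% of all genes. It was Hexa, which encodes a subunit of a lysosomal glycosidase, and it was higher in N40K (0.28, limma adjusted p = 0.0161). Hexa overlaps Tmem202 on the opposite strand. The calls of C4b, Cd33 and Hpgds at 12 months held under 21 of 25, 19 of 24 and 15 of 24 alternatives, and those of Hexa, Apoe, Golm1 and B2m at 3 months under 22, 16, 13 and 13 of 25.

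With age the lysosomal genes, like all tested genes, were lower more often than they were higher. Of the 17 tested, 7 were lower at 12 months in N40K and 8 in WT, against 36.5% and 29.0% of all tested genes. In either genotype 0 were higher, where 15.1% of all tested genes in N40K and 12.6% in WT were. The medians of the 17 were -0.22 and -0.23, against -0.10 and -0.08 for all genes. Grn, the lysosomal glycoprotein progranulin, had 26.1, 28.4 and 27.9 FPKM in N40K at 12 months, against 36.3, 35.8 and 39.0 FPKM in N40K at 3 months, and 26.3, 24.4 and 25.9 FPKM in WT at 12 months, against 37.6, 34.6 and 36.5 FPKM in WT at 3 months. The ages did not overlap, and the differences were -0.42 in N40K (limma adjusted p = 6.54e-05) and -0.49 in WT (limma adjusted p = 4.73e-05). Grn overlaps Fam171a2 on the opposite strand. These falls stood beside those of the lysosomal genes Cd68 in both genotypes and Ctsz in WT. Other lysosomal genes of the microglia set, Ctsd, Ctsb, Ctss and Laptm5, were not called with age in either genotype. Ctsz was not called with age in N40K. Whether the falls share a source was not tested.

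In the other lists Lgals3, the galectin of activated macrophages, was lower at 12 months in both genotypes. It had 0.466, 0.725 and 0.925 FPKM in N40K at 12 months, against 2.17, 2.17 and 2.51 FPKM in N40K at 3 months, a difference of -0.95 (limma adjusted p = 4.96e-05), and in WT the difference was -0.81 (limma adjusted p = 0.000258). Of the 15 tested genes in its list, the others of the disease-associated state, 4 were lower and 0 higher in each genotype. This count and those of the lists below stand beside the shares of all tested genes. Those were 36.5% lower and 15.1% higher in N40K, and 29.0% lower and 12.6% higher in WT. C4b was higher at 12 months, with 26.8, 25.8 and 28.9 FPKM in N40K at 12 months, against 16.8, 16 and 14.1 FPKM in N40K at 3 months, a difference of 0.76 (limma adjusted p = 2.49e-05), and of 0.55 in WT (limma adjusted p = 0.000321). Of the 9 tested complement genes 2 were higher and 1 lower in N40K, and 1 higher and 3 lower in WT. Of 14 other resting genes 4 were higher and 3 lower in N40K, and 1 (Mef2a, which overlaps Lysmd4 on the opposite strand) was higher and 0 lower in WT. Of the 11 ligands 1 was higher and 6 lower in N40K, and 0 higher and 3 lower in WT. Of the 12 signalling genes 1 was higher and 3 lower in N40K, and 0 higher and 2 lower in WT. Of the 4 inflammatory genes 3 (Nfkbia, Cd14 and Il18) were lower in both. Grn and C4b passed in both genotypes under all 25 alternatives and Lgals3 under all 24 that tested it.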

How the data were processed

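Poly-A selected RNA of mouse hippocampus was sequenced as paired reads, per the labels' protocols, in 12 libraries of 4 groups. The authors deposited 1 table of FPKM per gene and library. Among tools and builds, CASAVA, STAR, BWA and mm9 are listed in the submitters' processing notes, with no roles or versions. Exon overlaps with other genes are given for the 33 genes and the called genes of the other lists where described, because the counter, annotation and strand setting are not given in the sources used here. All 12 columns were matched to libraries by name and 0 were left over. Within groups the libraries correlated at 0.988 to 0.997, and at most 0.0159% of values were identical between any pair, so no library was counted as a copy.

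Values were tested as log2(FPKM + 1), without rescaling, for entries that reached 1 FPKM in 3 or more of 12 libraries. Differences are on that scale, which understates changes of low genes. One limma model (limma 3.58.1, R 4.3.3) with 4 group means gave 6 contrasts: genotype at each age, averaged and as a difference between ages, and age in each genotype. Moderated two-sided tests used a trended eBayes prior and were adjusted by Benjamini-Hochberg over the 13945 entries (threshold 0.05). The procedure was tested on simulated data. Depth was estimated from steps between low FPKM of 905 receptor genes; no count test was run, since only 53.8% to 75.0% of these values were whole reads to within 0.05. Figures were drawn with matplotlib 3.10.9.

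The genes, their lists and the tests were chosen with earlier results of these data known. The rule for naming was all libraries for any of the 33 genes called in a contrast and for 13 set genes. Elsewhere it was up to 4 called genes per list and contrast. Not all of this is printed. Some libraries of Itgam, Lpl, Axl, Cd9 and Ctsz are left out, and an unnamed gene of the other lists may have been called. For example, of 10 astrocyte markers Slc1a2 was called higher and Aldh1l1 and Gja1 lower at 12 months in both genotypes by limma. Spi1 was read under its older symbol Sfpi1; Trbc2 and Ly6g matched no entry. A few genes of these lists are not reported here and are left out of the counts of their lists. Alternatives changed the pseudocount, filter, scaling, covariates, variance model and libraries; removal of length and GC trends was added after seeing the data. GENCODE gene models matched 93.3% of entries by name and served for lengths, GC content and exon overlaps only.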

Additional observations from a re-analysis of the deposited data

Results flagged for a closer look

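Fcgr3 is listed because its libraries separated by age in opposite directions in the 2 genotypes. In N40K the 12-month libraries had 8.07, 8.08 and 7.70 FPKM, all below the 3-month libraries at 8.44, 8.55 and 9.29 FPKM. In WT the 12-month libraries had 8.68, 9.21 and 8.91 FPKM, all above the 3-month libraries at 8.66, 8.08 and 8.50 FPKM. The age difference in N40K minus that in WT was -0.20 on the log2 scale and did not pass (limma adjusted p = 0.224). It was the 1 gene of the 33 with this pattern. The share of all tested genes with the pattern was not counted, so the pattern is not shown to be unusual. No library of any of the 33 genes was set apart by a test for outliers, since groups of 3 are too small for one.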

How the results depend on the processing

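The counts of microglia genes called by genotype were small and moved with most choices. At 12 months the 3 calls became 1 with no filter, 1 with median-ratio scaling, 1 with Xist as a covariate and 0 when only the groups of the contrast were fitted; leaving out 1 library gave 0 to 2. Averaged over both ages the 2 calls became 1 with no filter, 1 with median-ratio scaling (that 1 lower, not higher), 0 with quantile normalization and 1 with Xist as a covariate; leaving out 1 library gave 1 to 3. At 3 months, and for the difference between ages, there were 0 calls under every alternative run. With age the 9 calls in N40K became 5 with Xist as a covariate (leaving out 1 library, 5 to 9), and the 9 in WT became 5 with quantile normalization and 5 when only those groups were fitted (leaving out 1 library, 5 to 11). The sign turned in 2 cases in N40K: Csf1r to 0.013 with the GC trend removed and Fcgr3 to 0.12 with the length trend removed. It also turned for 5 called genes of the added lists in N40K: Sparc to 0.027 with quantile normalization and 0.021 with the length trend removed, Rgs10 to 0.062 and Il18 to 0.004 with the length trend removed, Il34 to 0.021 with the length and 0.029 with the GC trend removed, and Cx3cl1 to 0.1 with quantile normalization, 0.029 with the length and 0.135 with the GC trend removed. The causes were not tested. Of 23 calls over the 30 genes and 6 contrasts 6 held under every alternative.

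Scaling also moved the direction of calls over all genes: 29.3% of those with age in N40K and 30.3% in WT were higher as deposited, against 49.8% and 51.7% with median-ratio scaling, and 69.5% of those between genotypes at 3 months, against 52.7%. Replicate numbers did not pair the libraries across the design: of 12 same-numbered pairs 4 had deviations correlated above 0.1, with a range from -0.456 to 0.343. All 3 pairs between the ages in WT did (0.246, 0.263 and 0.343), each library matching its own number best. With the replicate number as a block there were 2 calls at 12 months, 0 at 3 months, 1 averaged, 0 for the difference between ages, 7 with age in N40K and 9 in WT. Depth limits the genes under 1 FPKM, where Cst7, Itgax and Clec7a lie.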

Other observations

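Properdin (Cfp), a stabiliser of the alternative complement pathway made by myeloid cells, had 9.24, 9.55 and 8.17 FPKM in N40K at 12 months, against 8.86, 4.73 and 8.38 FPKM in WT at 12 months, and 16.4, 15.7 and 17.7 FPKM in N40K at 3 months, against 12.8, 11.4 and 12.9 FPKM in WT at 3 months. Averaged over both ages it differed by 0.35 ± 0.11 (SE), N40K minus WT, limma adjusted p = 0.045, a call that held under 6 of 24 alternatives. C3, the hub of the cascade, had 1.14, 2.34 and 2.25 FPKM in N40K at 12 months, against 0.717, 1.08 and 1.38 FPKM in WT at 12 months, and was not called by genotype. With age it was higher in N40K (0.62, limma adjusted p = 0.021), a call lost without N40K replicate 1 or 3 of 3 months or N40K replicate 2 or 3 of 12 months.

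Libraries of 1 group differed in how many microglia genes they held highest or lowest. In WT at 12 months replicate 2 held the highest value of its group for 20 of the 30 tested genes. In N40K at 3 months replicate 1 held the lowest for 23. The summed FPKM went the same way, at 332941 in that WT library against 321116 and 319131 in its group. It was 343725 in that N40K library, against 349431 and 350760. The shares over all tested genes were not counted, so these counts are not shown to be particular to microglia genes.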
